A study of Mus musculus with 6 samples.

Results

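Follicular helper T (Tfh)-like cells made in culture from wild-type (WT) CD4 T cells are described here by gene expression on 3 arrays, of 6 in the whole series. The other 3 arrays carry SAP-deficient cells of the same culture and serve here only as a second set of values. The question was which genes stand high, in the middle or near background in the WT cells. Probe sets that name 1 gene were averaged over the 3 WT arrays, the brightest was kept for each gene, and the 18193 genes were ranked by that level.

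The WT donors were OT-II mice, whose CD4 T cells carry a transgenic T cell receptor for a peptide of ovalbumin. The SAP-deficient donors carry the same transgene and lack SAP, the adaptor of SLAM-family receptors encoded by Sh2d1a. Naive cells (CD4+, low for CD44, negative for CD25) were sorted from spleen and lymph nodes. They were kept for 3.5 days with the peptide and splenocytes, the latter without T cells and with division blocked by mitomycin C. The medium of both genotypes held IL-6 at 100 ng/ml and IL-21 at 50 ng/ml. It also held blocking antibodies, at 20 µg/ml against TGF-β, at 10 µg/ml against IL-4, and against IFNγ and IL-12. From each sample 500 ng of total RNA was labelled. The labels give no age, name neither separate mice nor separate cultures for the arrays, and state no step that removed the splenocytes before RNA was made. All spreads below are therefore spreads between 3 arrays, and how much of them is technical is not known.

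Tfh cells help B cells in germinal centres. Their programme is driven by the repressor Bcl6, and they deliver help through the cytokine IL-21 and through CD40 ligand during contacts that depend on ICOS and SLAM receptors. In culture, peptide with IL-6 and IL-21 gives cells that share part of this programme, and such cells are also freshly activated T cells with high protein synthesis and glycolysis.

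Levels are log2 values, so 1 unit is nominally a doubling of signal within a probe set. Signal also depends on how well each probe set binds, so ranks across genes describe array signal and not numbers of transcripts. Of the genes, 9010 had at least 2 single-gene probe sets, and the median gap between the highest and the lowest was 2.00 log2 units. In a bulk culture a lower level in fewer cells and less RNA in every cell cannot be told apart. Array values ran from 1.96 to 14.20.

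A pair of limits was used to read low levels. The lower-quartile limit is the level under which 25% of the genes lie on an array, at 4.80, 4.80 and 4.88 on WT replicates 1, 2 and 3. A gene counted as over it only when it was over it on all 3 arrays, which held for 13191 genes (72.5%), a share that the definition sets close to its value. Another 4100 genes (22.5%) were at or under it on all 3 arrays. The sensory-receptor limit is stricter, the 99th percentile of 71 odorant and vomeronasal receptor genes, which T cells are not known to use. It lay at 6.19, 6.22 and 6.44. With so few genes this percentile falls between the 2 highest of them on each array, so the limit rests on very few probe sets. Over it on all 3 arrays were 9120 genes (50.1%), and 8081 (44.4%) were at or under it on all 3. Counts of list members over this limit are to be read against 50.1%. Of the genes over it, 5849 had at least 2 probe sets. For 1574 of these the second highest probe set had a mean at or under the limit's mean over the arrays. The 95th percentile of the same 71 genes lay at 5.52, 5.43 and 5.72, and 59.8% of all genes were over it on all 3 arrays.

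**Figure D1:**
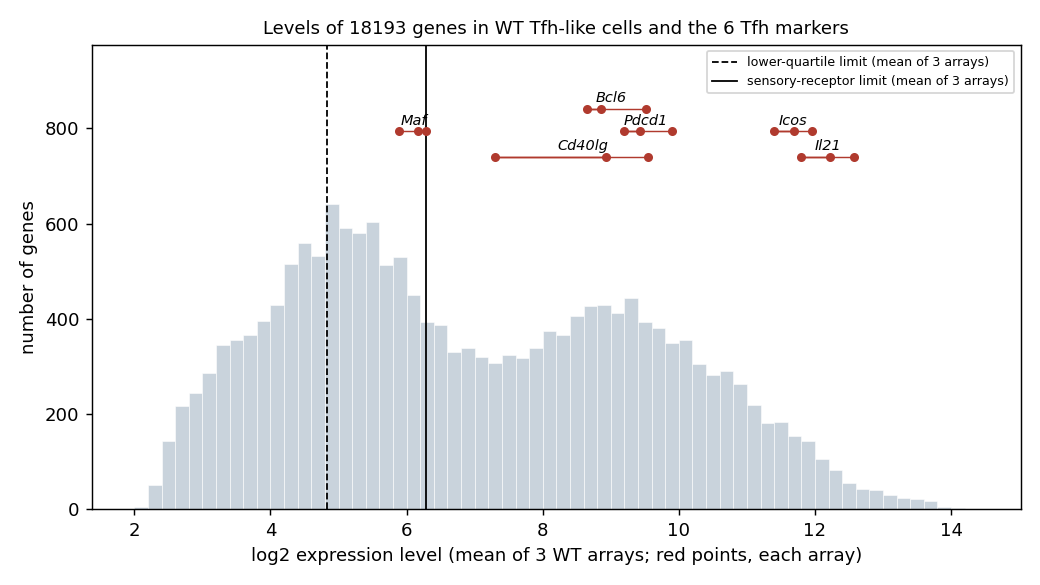
Histogram of the log2 expression level (mean of the 3 WT arrays) of 18193 genes, with the 6 Tfh marker genes as red points, 1 for each WT array, joined by a line and placed at arbitrary heights. The dashed and solid vertical lines are the lower-quartile and the sensory-receptor limit (means of 3 arrays), and Il21 and Icos lie far to the right while Maf lies at the stricter limit.

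The 3 arrays correlated at r = 0.993, 0.992 and 0.989 across probe sets, which are not independent replicates. Each WT array was closer to 1 SAP-deficient array, the one of equal number in accession order, at 0.997, 0.998 and 0.996, than to any other WT array. The labels state no link between equal numbers. The WT arrays stood apart in sex-linked transcripts. Xist, the RNA that silences an X chromosome, read 12.50 on replicate 1, 8.21 on replicate 2 and 5.81 on replicate 3. The Y-linked gene Eif2s3y read 3.54, 9.96 and 9.80 in the same order, Kdm5d 2.59, 8.07 and 7.50, and Uty 4.55, 6.59 and 6.08. Replicate 1 thus had the highest Xist and the lowest Y-linked levels, and replicate 2 had both at middle or high levels. Whether this moves with any level below was not tested, and the leading members are given array by array. Most members of several lists below were lowest on replicate 2, which among all genes over the lower-quartile limit was the lowest array for 31.5%.

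The top of the ranking was protein synthesis and the cytoskeleton, with 2 interleukins among them. Rank 1 was a probe set named for a T cell receptor alpha variable segment, Trav9d-3, at 14.20, 14.18 and 14.20. It is 1 of 5 for this name, of which the second highest had a mean of 12.74 and the lowest 6.76. Receptor segments share sequence, so which segment or constant region it reports is uncertain. The next were Tmsb10, which binds actin monomers, at 14.01 ± 0.07 (SD, n = 3, as after every ± below), and the ribosomal protein genes Rpl41 (14.08, 14.04 and 13.89), Rpl37a (13.99 ± 0.02), Rplp2 (13.94 ± 0.02) and Rps29 (13.91 ± 0.02). Elongation factor gene Eef1a1 followed at 13.87 ± 0.03. Below Il3 came Rpsa, Tpt1, Fau, Pabpc1, Rps3a1, Rpl13a, Rps7, Rplp0, Tmsb4x and Rps18, between 13.80 and 13.70, and Rpl19 closed the first 20 at 13.67 ± 0.01.

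These genes stood within a narrow band close to the highest array value of 14.20, where signals are compressed. Ranks 1 and 20 differed by 0.53 and ranks 1 and 100 by 1.20 log2 units. Of the 19 neighbouring pairs in the first 20 ranks, 4 kept their order on all 3 arrays, and of the 99 pairs in the first 100 ranks 9 did. The order inside this band is therefore mostly smaller than the spread between arrays. The median SD was 0.044 in the first 100 ranks, which lie in the same compressed range. Rank 100 was the stress-response factor gene Atf4, and the next gene stood at 12.99, within the spread of Atf4 over the arrays (12.92, 13.10 and 12.97).

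By name, 35 of the first 100 genes coded for ribosomal proteins, which make up 58 (0.319%) of all genes measured. Translation factors gave 7 (Eef1a1, Eif4a1, Eif5a, Eef2, Eef1b2, Eif3e and Eif3c), the cytoskeleton 7 (Tmsb10, Tmsb4x, Actb, Actg1, Pfn1, Vim and Arpc2), and a group of nuclear and chromatin names 4 (Npm1, Ncl, Ran and Hnrnpab, none of them a histone). Glycolysis gave 4 (Pgk1, Ldha, Aldoa and Pkm), MHC class I 3 (H2-K1, H2-D1 and B2m), and the respiratory chain 3. In the first 500 ranks the ribosomal genes numbered 37, the respiratory chain 30, translation factors 23 and chaperones 21. The ribosomal genes were thus mostly in the first 100 already, and the respiratory chain genes mostly below it. The ribosomal count depends on the probe sets admitted. Of the 35 genes, 19 were read by a probe set ending in _a_at, 10 in _x_at, 2 in _s_at and 4 in plain _at. Without the first 3 kinds the count in the first 100 was 6, and 21 of the 35 then had no single-gene probe set left. On the SAP-deficient arrays, ranked alone, 95 of the same first 100 and 485 of the first 500 genes recurred.

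The glycolysis list holds enzymes and transporters that turn glucose into lactate. All 15 measured members were over both limits, against 50.1% of all genes over the stricter one. Of the 15, 11 were in the top 10% of genes (level 10.63 or more). Pgk1 read 13.42, 13.41 and 13.51, and Ldha, lactate dehydrogenase, 13.49, 13.26 and 13.35. Aldoa (13.14 ± 0.14), Pkm (13.13 ± 0.18) and Tpi1 (12.91 ± 0.29) followed. The glucose transporter genes Slc2a3 and Slc2a1 had means of 12.89 and 11.89, and the first enzyme Hk2 12.08. The lowest were Slc16a3, a lactate exporter, at 9.12, 7.67 and 8.29, and the muscle-type Pfkm at 7.60 ± 0.35. All 15 members were lowest on replicate 2.

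Of the 6 Tfh markers, 5 were over both limits on every array, and 50.1% of all genes were over the stricter one. Il21, the cytokine that Tfh cells give to B cells, read 12.23, 11.79 and 12.57, rank 325, although its second probe set had a mean of 7.37. IL-21 protein was also in the medium, which an array of RNA does not read. Icos, the co-stimulatory receptor that keeps Tfh cells in contact with B cells, read 11.70, 11.40 and 11.95. Pdcd1, which codes for the inhibitory receptor PD-1, read 9.91, 9.20 and 9.43.

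Bcl6 was in the middle of the range at 9.51, 8.65 and 8.86, and a second probe set of the gene had a mean of 6.62. Cd40lg, the ligand that activates B cells through CD40, read 8.93, 7.29 and 9.54, and its SD of 1.16 was the widest of the markers. Maf, a factor that drives Il21 and Il4, had 6.28, 6.17 and 5.89 and was over the sensory-receptor limit on 1 array only. The second highest of its 6 probe sets had a mean of 6.05. Of the 6 markers, Il21, Icos, Pdcd1, Bcl6 and Cd40lg were thus over both limits and Maf lay near the stricter limit. Markers were lowest on replicate 2 in 5 of 6 cases, the exception being Maf.

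Other Tfh-linked genes split into a high and a low group. Over the sensory-receptor limit were 17 of 22, against 50.1% of all genes, and 5 were at or under it. Highest were Cd200, an inhibitory ligand, at 12.70, 12.33 and 12.21, and Irf4, a factor induced by receptor signals, at 12.39, 12.34 and 12.45. Tnfsf8 (CD30 ligand) had a mean of 12.06 ± 0.54, Btla 11.99 ± 0.29 and Pou2af1, a coactivator of octamer factors, 11.03 ± 0.13. Batf (10.97) and Stat3 (10.68) were also high.

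The low group was Cxcr5, Tox, Cebpa, Ascl2 and Sostdc1. Cxcr5, the receptor that brings these cells into the follicle, read 5.82, 6.11 and 5.74, under the stricter limit on each array. It was over the lower-quartile limit and over the 95th percentile of the sensory receptor genes on all 3, so this call depends on the limit. Ascl2, a factor that induces Cxcr5, read 4.91, 4.96 and 4.82, close to the lower-quartile limit. Tox (5.62, 5.07 and 6.10), Cebpa (4.60, 4.80 and 5.49) and Sostdc1 (4.43, 4.59 and 5.01) completed the group. Other genes linked to germinal centre Tfh cells were over both limits, such as S1pr2, a receptor that holds cells in the germinal centre, at 7.76, 8.32 and 7.85. Tox2, a relative of Tox, was over both limits at 8.05, 9.22 and 8.99 by its brighter probe set. Its second probe set had a mean of 4.41, under both limits, so this call rests on 1 probe set.

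The cytokine list was among the highest: 28 of 35 members were over the sensory-receptor limit, against 50.1% of all genes, and 15 were in the top 10%. Il3, a growth factor for blood progenitors and mast cells, read 13.89, 13.71 and 13.93, rank 8, and Il2, the growth factor of T cells, 13.82, 13.34 and 13.92, rank 19. Mif followed at 13.55, 13.50 and 13.52, although its second highest probe set had a mean of 4.49. Csf2 (GM-CSF) read 12.98, 12.71 and 13.51. With the chemokine genes Ccl3 and Ccl4, these were the 6 cytokine and chemokine genes in the first 100.

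Signature cytokines of other helper fates stood beside Il21, although the medium held antibodies to some of them. Ifng, the Th1 cytokine, read 12.90, 11.82 and 12.73, rank 206. Il17a, the Th17 cytokine, read 11.05, 10.18 and 11.28. Il4 read 10.57, 9.53 and 11.29, and Il13, a Th2 cytokine, 8.25, 7.66 and 9.05. Whether the antibodies changed these RNA levels was not tested. Il10, an inhibitory cytokine, was split by array at 8.38, 6.20 and 7.92, with replicate 2 under the stricter limit.

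Il5 (5.29, 4.70 and 4.73) and Il9 (4.87, 5.21 and 4.88) were near background, and the IL-12 subunit genes Il12b (4.88, 4.88 and 4.85) and Il12a (5.51, 5.07 and 5.70) were also under the stricter limit. Of the TNF family, Tnfsf8 (12.06 ± 0.54), Tnfsf11, which codes for RANKL (11.85 ± 0.24), Tnf (11.65 ± 0.65) and Tnfsf14 (11.43 ± 0.63) were high, and Tnfsf10, coding for TRAIL, was low at 5.74 ± 0.57. Il31, an itch cytokine of helper cells, read 10.11, 8.63 and 11.94, the widest of the list. The cytokines varied more than other genes: 15 of the 31 over the lower-quartile limit had an SD over 0.5, against 5.57% of all genes over it. Of these 31, 23 were lowest on replicate 2. The list's mean level was 9.69 on replicate 1, 9.34 on replicate 2 and 9.92 on replicate 3.

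**Figure D2:**
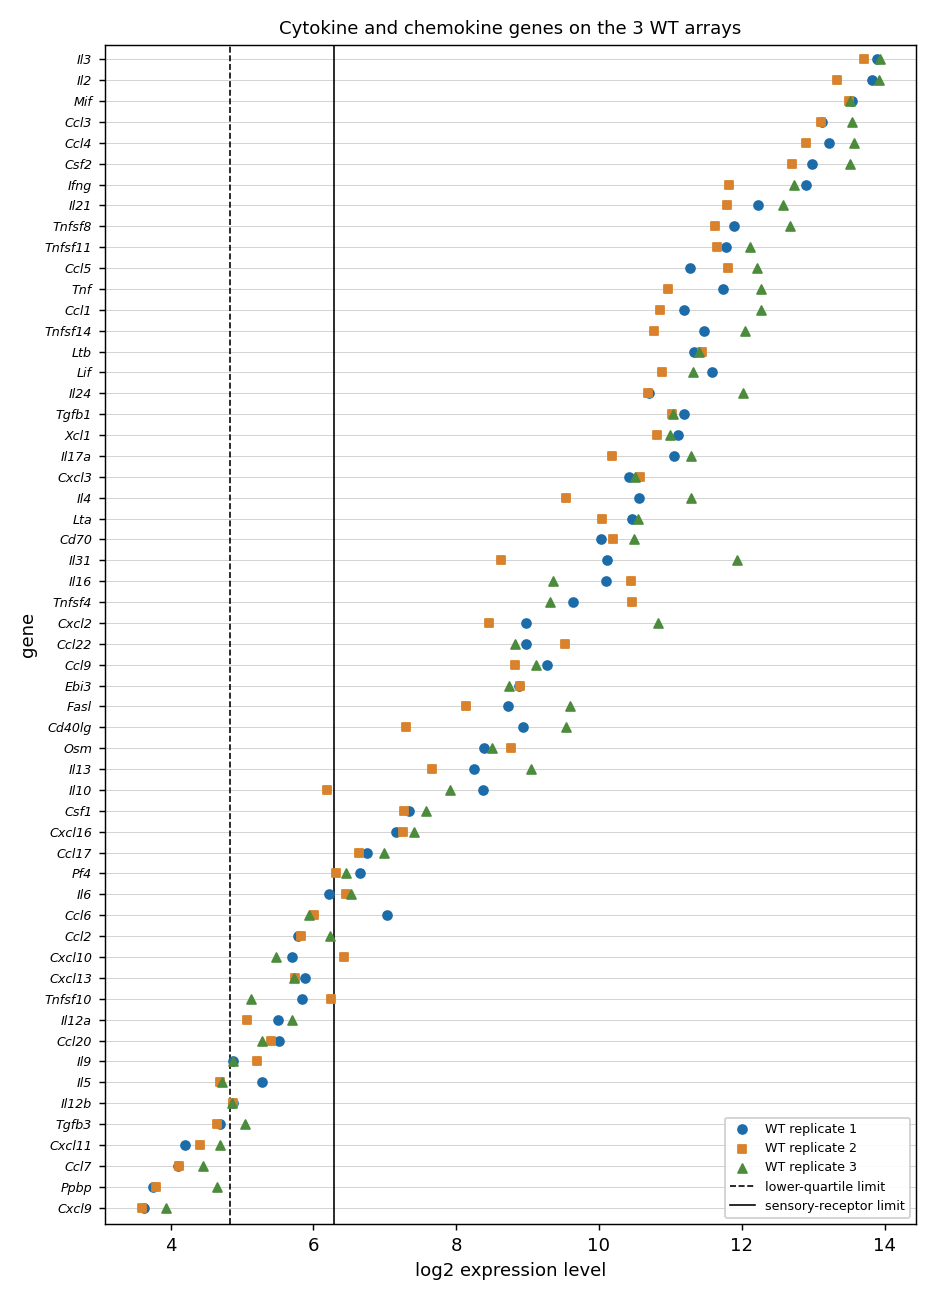
Log2 expression level of each cytokine and chemokine ligand gene on the 3 WT arrays (circle, square and triangle for replicates 1, 2 and 3), in order of the mean, with the lower-quartile (dashed) and sensory-receptor (solid) limits. Il3 and Il2 lead, replicate 2 is the lowest point for many of the bright genes, and Il31 spreads from 8.63 to 11.94.

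Of the chemokine ligand list, 12 of 21 were over the sensory-receptor limit, near the 50.1% of all genes, and 7 at or under it. Ccl3 read 13.12, 13.10 and 13.54 and Ccl4 13.22, 12.89 and 13.58; both are inflammatory chemokines. Ccl5 had 11.27, 11.80 and 12.21, Ccl1 11.19, 10.86 and 12.26, and Xcl1, which draws cross-presenting dendritic cells, 11.10, 10.81 and 10.99. Among the low members were the interferon-induced Cxcl9 (3.72 ± 0.19) and Cxcl11 (4.43 ± 0.24), while Cxcl10 was split at 5.70, 6.42 and 5.47. Cxcl13, which draws CXCR5-bearing cells and is made by human Tfh cells, read 5.89, 5.74 and 5.73.

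The promoters of 3 of these cytokines and of 1 ribosomal gene are shown because they belong to the highest interleukin genes, the leading Tfh marker and a ribosomal gene of similar rank. Each runs from 250 bases before to 50 bases after the start of transcription, from RefSeq on GRCm38.p6, 5′ to 3′ on the gene's strand. Capitals mark every CG dinucleotide and every match, on either strand, to the motifs TATAAA (the TATA box) and TGANTCA (the AP-1 site). Il3 lies at chr11:54267230-54267529 and Il2 at chr3:37125905-37126204, both on the minus strand, Il21 at chr3:37232587-37232886 on the minus strand, and Rplp2 at chr7:141447401-141447700 on the plus strand.
Il3: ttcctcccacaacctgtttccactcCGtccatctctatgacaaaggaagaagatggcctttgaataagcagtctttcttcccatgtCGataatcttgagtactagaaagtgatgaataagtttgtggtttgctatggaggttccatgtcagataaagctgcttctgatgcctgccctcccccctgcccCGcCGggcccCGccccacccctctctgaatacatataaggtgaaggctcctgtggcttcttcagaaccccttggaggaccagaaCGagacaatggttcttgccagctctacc
Il2: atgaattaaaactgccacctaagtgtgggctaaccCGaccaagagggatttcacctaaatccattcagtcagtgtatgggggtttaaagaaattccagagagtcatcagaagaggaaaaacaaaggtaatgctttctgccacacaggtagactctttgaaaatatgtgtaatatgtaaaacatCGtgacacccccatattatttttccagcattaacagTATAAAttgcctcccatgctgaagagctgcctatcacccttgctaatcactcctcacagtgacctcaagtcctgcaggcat
Il21: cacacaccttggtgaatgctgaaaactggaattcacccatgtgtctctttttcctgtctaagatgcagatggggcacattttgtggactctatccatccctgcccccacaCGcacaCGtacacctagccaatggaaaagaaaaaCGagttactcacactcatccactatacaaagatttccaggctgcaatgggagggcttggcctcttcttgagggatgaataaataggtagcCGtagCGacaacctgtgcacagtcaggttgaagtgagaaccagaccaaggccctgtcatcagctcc
Rplp2: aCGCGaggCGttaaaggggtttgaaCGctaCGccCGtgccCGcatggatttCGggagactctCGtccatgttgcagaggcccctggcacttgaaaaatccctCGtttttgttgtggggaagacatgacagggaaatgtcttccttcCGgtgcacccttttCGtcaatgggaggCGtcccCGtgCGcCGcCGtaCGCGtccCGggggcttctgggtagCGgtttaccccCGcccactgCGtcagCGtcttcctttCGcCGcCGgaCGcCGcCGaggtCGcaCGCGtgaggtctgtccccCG

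Il2 held 1 match to TATAAA, 31 bases before the start, and 2 CG dinucleotides. Il3 held 6 CG dinucleotides and Il21 5, neither with a match to TATAAA, and Rplp2 held 34. RefSeq's table gave a promoter for 14368 of the genes. Over these the median was 17 CG dinucleotides in 300 bases. It was 22 for genes over the sensory-receptor limit, 8 for genes at or under it, and 7 for the 23 cytokine genes over it that had a promoter. TATAAA was found in 9.86% of all these promoters and in 7 of the 23 cytokine promoters (30.4%), and TGANTCA in 6.29% and in 5 of 23 (21.7%). GGAAA, the core that NFAT factors bind, was in 59.3% of all and 87.0% of the cytokine promoters. Shares above those of all genes were also found in genes that T cells are not known to use. Among 58 promoters of the sensory receptor genes, TATAAA was in 31.0%, TGANTCA in 25.9% and GGAAA in 75.9%, and genes at or under the sensory-receptor limit had TATAAA in 855 of 6110 promoters and TGANTCA in 8.38%. A match describes letters only and is not a site. The cytokine median for CG dinucleotides was thus nearer to that of the dim genes than to that of the bright genes.

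Of 85 transcription factor genes of helper cells, 74 were over the sensory-receptor limit, against 50.1% of all genes, and 28 in the top 10%. The highest were Atf4 (12.92, 13.10 and 12.97), Xbp1, a factor of the secretory pathway (12.56, 12.76 and 12.63), and Hif1a, the hypoxia factor that raises glycolysis genes (12.74, 12.52 and 12.62). Irf4 and the growth factor gene Myc (12.37, 12.19 and 12.36) came next. These 5 had SDs of at most 0.11.

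Regulators of several helper fates were present together. Tbx21, which codes for T-bet of Th1 cells, read 9.97, 9.83 and 9.69, and Gata3, the Th2 factor, 10.04, 9.50 and 10.54. Rora, one of the Th17 factors, had 10.14, 9.48 and 10.27. By contrast Foxp3, the factor of regulatory T cells, read 4.83, 5.11 and 4.82, close to the lower-quartile limit. Prdm1, which codes for Blimp-1, the opponent of Bcl6, read 6.31, 5.73 and 6.26, around the stricter limit, while Bcl6 stood over it on all arrays.

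Several early-response factors, named after their values were seen, were bright and differed between arrays. Nr4a3 read 12.33, 11.17 and 12.90, Nr4a1 11.66, 10.35 and 12.09, Egr1 11.67, 10.98 and 11.79, Egr2 11.45, 11.11 and 11.77, and Egr3 10.14, 8.08 and 9.88. The second highest probe set of Nr4a3 had a mean of 6.40. Each of the 5 genes was lowest on replicate 2. Nfatc1, the inducible NFAT gene, was likewise lowest there at 9.50 against 10.66 and 10.98. Other members went the other way: Jun (9.25, 10.07 and 9.44) and Irf1 (8.94, 10.33 and 9.06) were highest on replicate 2. Of the 83 factor genes over the lower-quartile limit, 38 were lowest on replicate 2, 22 on replicate 1 and 23 on replicate 3. Other inducible factors were even, such as Irf4, Bhlhe40 (12.17, 12.23 and 12.29) and Jund (11.71, 11.58 and 11.68). The quiescence factor Klf2 was low in comparison at 6.97, 6.69 and 7.46. Ahr (6.09 ± 0.29) and Zbtb16, which codes for PLZF of NKT cells (5.98 ± 0.03), were near the stricter limit.

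**Figure D3:**
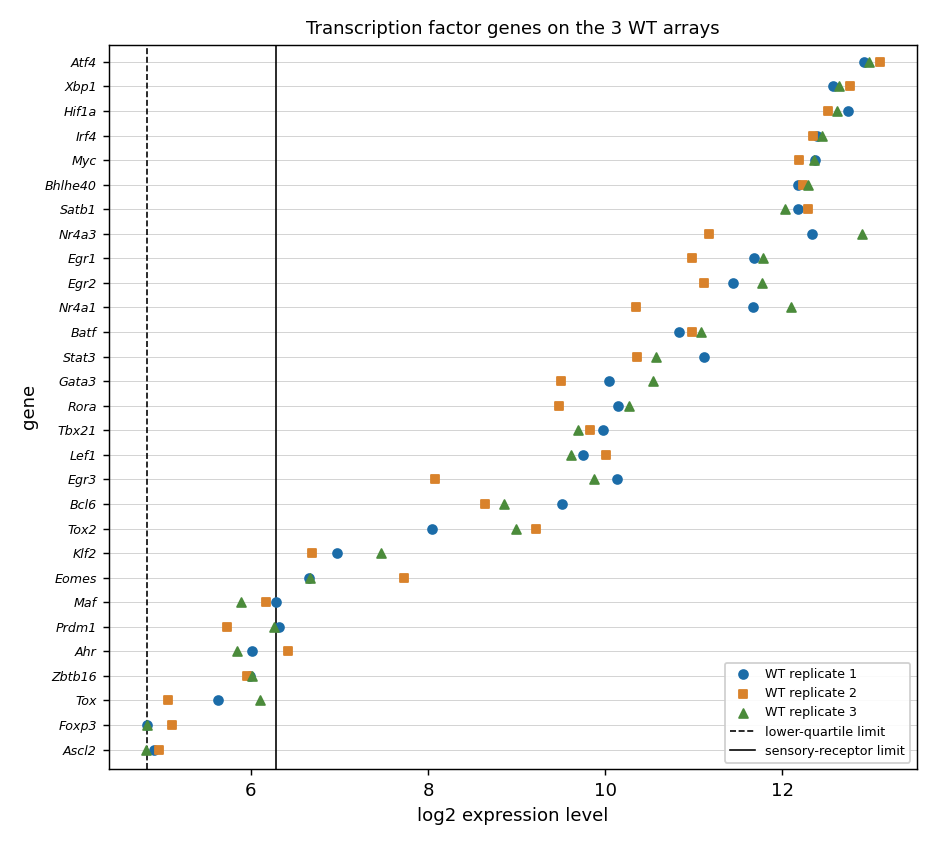
Log2 expression level of 29 selected transcription factor genes on the 3 WT arrays (circle, square and triangle for replicates 1, 2 and 3), in order of the mean, with the lower-quartile (dashed) and sensory-receptor (solid) limits. The points of Atf4, Xbp1 and Irf4 lie together, those of Nr4a1, Nr4a3 and Egr3 lie apart with replicate 2 lowest, and Foxp3 and Ascl2 sit at the dashed line.

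The receptors of activated T cells were almost all bright. Of 33 genes for the T cell receptor, co-stimulation and activation, 31 were over the sensory-receptor limit, against 50.1% of all genes. In the top 10% were 23 of them. Tnfrsf4, which codes for OX40, read 13.33, 13.06 and 13.49, rank 61. The receptor chain gene Cd3d (12.91, 12.78 and 12.97), Ptprc (12.85 ± 0.06), the transferrin receptor gene Tfrc (12.67 ± 0.13) and Cd82 (12.64 ± 0.09) followed. Cd28 had a mean of 11.97 and Cd4, the lineage co-receptor, 9.87, 9.50 and 9.49. The only members under the stricter limit were Tnfrsf14 at 5.99, 5.80 and 6.21 and Cd226 at 2.96 ± 0.12.

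The list of inhibitory receptors, which also holds ligand genes such as Cd200, Pdcd1lg2 and Cd274, was high as well. Of its 16 measured members, 12 were over the sensory-receptor limit, against 50.1% of all genes. After Cd200 and Btla came Ctla4, at 12.15, 10.14 and 11.96, where replicate 2 lay apart from the others. The PD-1 ligand genes Pdcd1lg2 (11.24, 11.29 and 11.11) and Cd274 (11.06, 10.87 and 11.28) stood above Pdcd1 in the ranking. Entpd1, Klrg1, Lair1 and Cd244a were at or under the limit, between 5.14 and 5.99.

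Of the SLAM family and its signalling partners, 8 of 11 were over the sensory-receptor limit, against 50.1% of all genes. Fyn, the kinase that SAP recruits, had 11.96, 11.70 and 11.91, and Slamf1 11.43, 10.87 and 11.76. Cd48 (10.81 ± 0.16), Cd84 (10.57 ± 0.58), Slamf7 (10.12 ± 0.90) and Slamf6 (9.84 ± 0.66) came next. Sh2d1a itself, coding for SAP, read 9.50, 8.52 and 9.39. Of the 10 members over the lower-quartile limit, 9 were lowest on replicate 2, Ly9 being the exception.

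Cytokine receptors were more moderate, with 24 of 30 over the sensory-receptor limit, against 50.1% of all genes, but 5 in the top 10%. Il1r2, a decoy receptor for IL-1, stood out at 13.07, 12.74 and 13.14, rank 102. Il2ra, which codes for CD25 and was the surface marker the sorted cells lacked, read 11.78, 11.65 and 11.79. Il7r (10.98 ± 0.32), Crlf2 (10.96 ± 0.06) and Il12rb1 (10.84 ± 0.12) followed. The receptors for the added cytokines were lower: Il21r read 8.59, 9.30 and 8.11, Il6ra 7.19, 7.15 and 6.99, and Il6st, the shared signalling chain, 7.43, 7.27 and 8.08. Il9r was at 3.61 ± 0.14.

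Among chemokine, S1P and homing receptors, 20 of 32 were over the sensory-receptor limit, against 50.1% of all genes, and 7 at or under it. The integrin genes Itgav (12.03, 11.74 and 12.46), Itgb2 (11.68 ± 0.11) and Itgal (11.52 ± 0.24) led with Ptger2 (11.61 ± 0.11) and the Th1-linked Cxcr3 (11.46, 10.56 and 11.60). Ccr7, which keeps T cells in the T zone and which Tfh cells lower, read 10.07, 10.76 and 10.25. Cxcr5 was under the stricter limit but over the lower-quartile limit. S1pr1, needed to leave lymphoid tissue, was under both limits at 4.19, 4.27 and 4.17. Ccr3 (5.12, 3.96 and 6.45) and Ccr8 (5.04, 4.95 and 6.52) reached their highest value on replicate 3.

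Markers of other cells differed by list, from none over the sensory-receptor limit to more than the 50.1% of all genes. Of 17 neutrophil and mast cell genes none was over the sensory-receptor limit, and the highest were Mcpt4 (5.51 ± 0.20), Tpsb2 (5.41 ± 0.12) and Ltf (5.17 ± 0.29). Of 12 erythroid and platelet genes, 3 were over it, Itga2b (7.27 ± 0.04), Epor (7.13 ± 0.08) and Pf4 (6.47 ± 0.17), and the globin gene Hba-a1 was at 3.89. Of 16 B cell genes 4 were over it. Ighm, the heavy chain of IgM, was the bright one at 10.97, 10.25 and 9.98. Ebf1 (7.23 ± 0.53), Cd72 (6.53 ± 0.19) and Cd79b (6.41 ± 0.14) lay near the limit, and Ms4a1 (5.39), Cd79a (5.84) and Pax5 (5.07) under it. The mean over the B cell list was 6.06, 5.84 and 5.93 on the 3 arrays.

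Antigen-presenting cells were in the culture as splenocytes. Of 9 MHC class II genes, 6 were over the sensory-receptor limit, against 50.1% of all genes. Cd74, the invariant chain, read 10.18, 10.16 and 10.04, H2-Ab1 10.30, 9.57 and 10.17, and H2-Aa 8.84, 8.56 and 8.29. The transactivator gene Ciita was at 4.97, 4.82 and 5.22. Of 21 macrophage and dendritic cell genes, 9 were over the limit, slightly below the share of all genes, led by Cst3 (11.06 ± 0.04), Batf3 (8.37 ± 0.19) and Fcer1g (7.13 ± 0.23), of which Cst3 and Batf3 are also used by other cells. The complement genes C1qa, C1qb and C1qc (5.09, 3.80 and 4.36), Adgre1 (5.04) and Itgam (4.17) were under it. List means were 7.48, 7.25 and 7.52 for MHC class II, and 6.22, 6.03 and 6.18 for macrophages and dendritic cells. The part of remaining splenocytes in these levels was not tested.

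Of 16 genes of NK, NKT, CD8 and gamma-delta T cells, 9 were over the sensory-receptor limit, a share near the 50.1% of all genes. Gzmb, the cytotoxic protease granzyme B, was rank 67 at 13.25, 13.20 and 13.34, Nkg7 had 11.82, 11.20 and 11.43, and Gzma 10.15, 9.80 and 9.81. The pore protein gene Prf1 was lower at 8.47, 7.52 and 7.67. Cd8a, which defines CD8 T cells, was under the limit at 5.94, 5.59 and 5.91, while Cd8b1 read 8.66, 8.18 and 8.84. The NK receptor genes Ncr1 (4.55) and Klra8 (3.36) were under the lower-quartile limit on each array.

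Among stromal, endothelial and epithelial genes 3 of 19 were over the sensory-receptor limit, against 50.1% of all genes. Lum, a collagen-binding proteoglycan, read 12.14, 11.72 and 11.68, rank 531. Epcam, an adhesion molecule of epithelia, read 8.90, 9.62 and 9.44, and Dcn 7.70, 7.50 and 7.05. The collagen genes Col1a1 (4.58) and Col3a1 (3.23), the endothelial genes Cdh5 (4.38) and Tek (3.64) and the epithelial gene Cdh1 (3.03) were dim. Of 22 genes of other tissues 4 were over the limit, against 50.1% of all genes. They were Mbp, the myelin protein gene, at 10.28, 10.62 and 10.90, and Prm1 (6.89 ± 0.21), Ins2 (6.88 ± 0.04) and Ttr (6.71 ± 0.04). Lum, Epcam and Mbp were thus bright on every array. Dcn was over the sensory-receptor limit at a lower level, while the named collagen genes, endothelial genes and Cdh1 were dim.

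**Figure D4:**
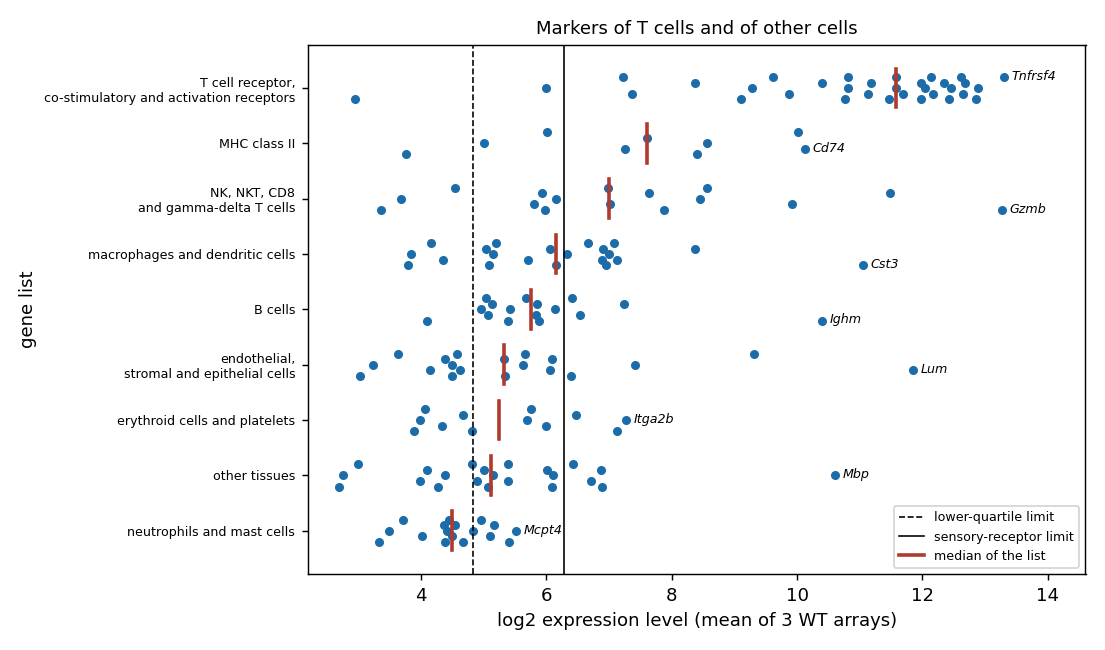
Mean log2 expression level over the 3 WT arrays of each gene (points) in a list of T cell receptors and activation receptors and in lists of other cells, with the median of the list as a red bar and the highest gene named. The dashed and solid lines are the lower-quartile and the sensory-receptor limit; the T cell list lies mostly over 10, and the other medians lie between 4.49 and 7.61.

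The median SD over the 3 arrays was 0.157 for genes over the lower-quartile limit, and 735 of them (5.57%) had an SD over 0.5. Among these 735, replicate 2 was farthest from the middle value for 332, replicate 3 for 304 and replicate 1 for 99. Replicate 2 was the highest array for 395 of them and the lowest for 231, and replicate 3 the lowest for 379, so the lists that were lowest on replicate 2 did not follow the balance of all wide genes. Besides Xist, the widest were Esm1 (8.08, 5.12 and 7.95), Il31, Diaph2 (6.38, 7.83 and 4.95), Samd4 (7.36, 5.49 and 8.13) and Usp18, an interferon-induced protease gene (6.05, 6.90 and 8.65). Then came Sgms2, Cxcl2 (8.98, 8.46 and 10.82), Thbs1, Anxa3, Cav1, F3, Mst1r, Cd40lg and Gm13889, with SDs between 1.16 and 1.29. The SAP-deficient arrays, numbered only by accession order, showed like spreads: Esm1 had 7.78, 4.98 and 8.03, Il31 11.02, 9.22 and 12.29, and Cd40lg 8.82, 7.18 and 9.13. In 14 of these 15 genes the lowest SAP-deficient array had the number of the lowest WT array, with Thbs1 the exception. The source of the spread was not tested.

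**Figure D5:**
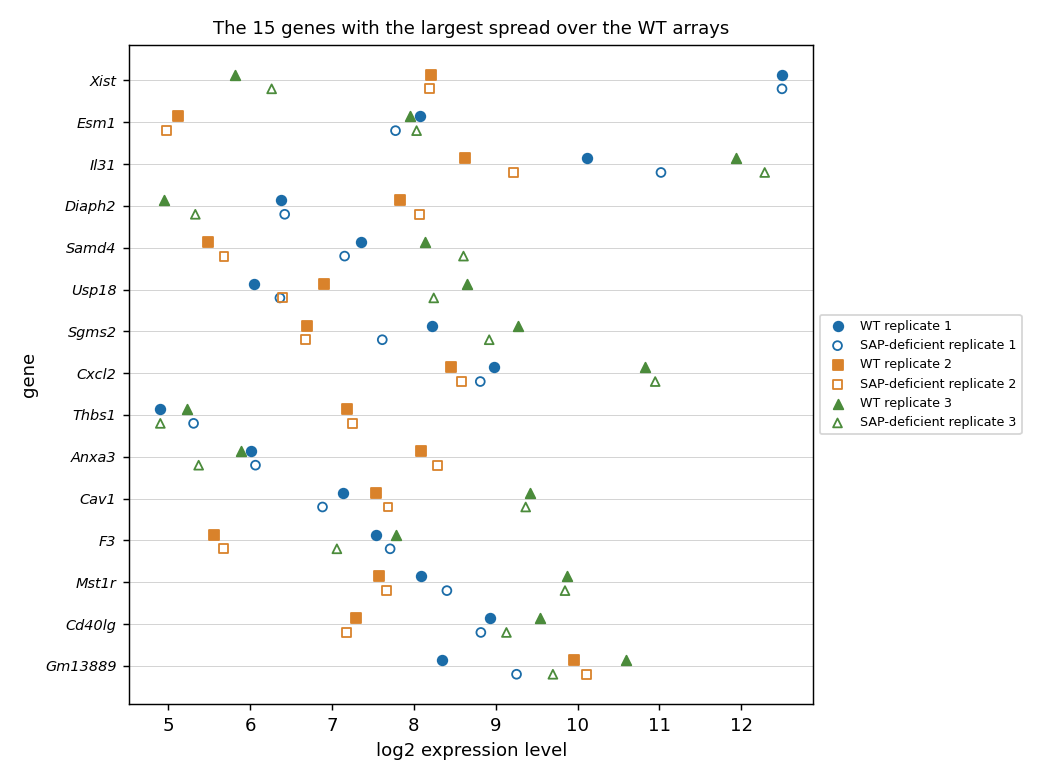
Log2 expression level of the 15 genes over the lower-quartile limit with the largest SD over the 3 WT arrays, as filled symbols for WT and open symbols for SAP-deficient arrays, with shape and colour for the replicate number. Replicate 2 is lowest for Esm1, Il31 and Cd40lg in both genotypes, and highest for Diaph2, Thbs1 and Anxa3.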

How the data were processed

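RNA of 6 samples was hybridised to Affymetrix mouse whole-genome arrays, 1 array for each sample. The authors deposited log2 levels for 45101 probe sets, made with Affymetrix Expression Console and RMA per the submitters' processing notes. Their versions and annotation are not given in the sources used. RMA equalises the arrays' distributions and compresses dim values. An array series has no read depth, so the number of arrays limits the precision.

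After 64 control probe sets were left out, the platform annotation gave 1 gene for 34945 probe sets, several for 932 and none for 9160, and a RefSeq gene table matched 34741 by gene ID. Each gene's highest WT probe set was used, and SDs are over the 3 WT arrays. The main background limit was to be a percentile of at least 200 sensory receptor genes. As 71 were measured, the lower quartile of all genes replaced it, and the 99th percentile of the 71 stands beside it as the sensory-receptor limit.

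Named are the 20 highest genes, the 6 markers, the highest members of each list, set regulators and receptors, the 15 widest genes and the sex-linked genes; further members were named after their values were seen. The members and the 20 lists (411 of 448 genes measured) were chosen with earlier results of these data known. Genes without a single-gene probe set are not analysed here. Python 3.11.15, numpy 2.4.6, pandas 2.3.3 and, for 1 alternative, limma 3.58.1 in R 4.3.3 were used, the limma step after it was tested on simulated data. Alternatives were other probe sets, limits and normalizations and leaving out each array.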

Additional observations from a re-analysis of the deposited data

How the results depend on the processing

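The count of genes over the background limit was 13191. It was 9120 at the 99th percentile of sensory receptor genes, 10874 at their 95th percentile, a limit chosen after seeing the data, 8687 at the median of all genes and 12930 by limma with adjusted p under 0.05. The count at or under the limit was 4100, and 8081, 6203 and 8691 at the same 3 limits. At the 99th percentile, the median of all genes and the 95th percentile, members over the limit were 4, 2 and 8 for B cells (main count 13), 0, 0 and 0 for neutrophils and mast cells (main count 3), and 4, 4 and 8 for other tissues (main count 13). At the 99th percentile and the median they were 9 and 6 for macrophages and dendritic cells (main count 17), 3 and 2 for erythroid cells and platelets (main count 6), 3 and 3 for endothelial, stromal and epithelial cells (main count 10), and 0 and 0 for the sex-linked genes (main count 1). Chemokine ligands numbered 11 at the median (main count 17).

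Without probe sets ending in _x_at, _s_at or _a_at, ribosomal genes in the first 100 numbered 6 (main count 35), MHC class II genes 5 (main count 8), endothelial, stromal and epithelial genes 6 and sex-linked genes 0, and 40 of the first 100 genes remained. With the median of a gene's probe sets, neutrophil and mast cell genes numbered 6 and sex-linked genes 0, and 66 of the first 100 remained. Second quantile normalization kept 99. Without WT replicate 1, 2 or 3, 99, 97 and 97 of the first 100 remained, neutrophil and mast cell genes ranged from 3 to 5 (5 without replicate 2), sex-linked genes from 1 to 4 (4 without replicate 1), and the median SD from 0.108 to 0.151. The other 223 recomputed values stayed within 1.5 times the main value. The cause of the changes beyond that was not tested where the alternative's own construction does not give it.

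No paired analysis was possible because no groups were compared by a test and the labels give no replicate numbers; equal numbers here are accession order only. Signals near background and near the top of the scale are compressed, probe binding differs between genes, and 3 arrays limit the precision of each SD.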

Other observations

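Among the first 100 genes, 35 belonged to none of the named groups, and 5 of them are given here. Inhba, which codes for a subunit of activin A, read 13.29, 12.88 and 13.35 on the 3 WT arrays, although its second probe set had a mean of 4.20. Srgn, the proteoglycan core of secretory granules, read 13.45, 13.37 and 13.45, and Lgals1, which codes for galectin-1, 13.61, 13.50 and 13.42. Acly, the enzyme that makes acetyl-CoA from citrate, had a mean of 13.09 and the mitochondrial matrix protein gene C1qbp 13.27. Each of these 5 genes was thus bright on all 3 arrays.

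Beside Trav9d-3, the probe set named for the receptor segment Trbv1 read 12.90, 12.95 and 12.92. It ends in _x_at, and which segment or constant region it reads is uncertain. The other Trbv1 probe set had a mean of 9.23. Trbv13-2 had a mean of 8.03 and Trav12n-2 of 7.60. The probe set named Tcra read 3.15, 3.13 and 3.35. Of the probe sets without a gene name, 32 reached the level of rank 100, with a highest mean of 14.10, and 1507 (16.5%) were over the sensory-receptor limit on all 3 arrays. Of those with several names, 80 reached that level.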
